A study of Mus musculus with 8 samples.

Results

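The genes described here encode 3 families of small secreted protease inhibitors, the Wfdc, Spink and cystatin (Cst) families, measured in juvenile mouse testis. They were chosen by name alone, as the non-control array probes whose gene name begins with Wfdc, Spink, or Cst and a digit. This gave 43 of the 55681 probes on the array, for 39 genes: 17 Wfdc, 13 Spink and 9 cystatin genes. Testes came from Ip6k1-/- mice (knockout, KO) and their Ip6k1+/+ littermates (wild type, WT), bred from Ip6k1+/- parents on the C57BL/6 strain. The 4 groups were KO at 26 days postpartum (dpp, weaned juveniles), WT at 26 dpp, KO at 17 dpp (pups before weaning) and WT at 17 dpp, each with 2 arrays (n = 2) that the labels call biological replicates. All mice were killed with CO2. The labels say neither which part of Ip6k1 was deleted nor whether a replicate was 1 animal or a pool, so p-values measure the spread between these samples.

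Many WAP domain proteins (Wfdc) and Kazal-type proteins (Spink) block serine proteases such as trypsin-like enzymes and neutrophil elastase. Many cystatins, but not all, block cysteine proteases of the cathepsin and legumain type. Many members of all 3 families are made in the male tract, where some restrain acrosomal proteases or guard sperm. The Wfdc genes of the mouse lie mainly in a cluster on chromosome 2, and several type 2 cystatins of the testis and epididymis lie together elsewhere on the same chromosome.

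By the probe coordinates in the files (mm9), 22 of the 39 genes lay on chromosome 2. The Wfdc cluster held 14 of them, at chr2:164003097-164568589, and the cystatin cluster 6, at chr2:148594465-148697740. The 60-base probes that carry the main results are shown first, because each value below is the brightness of 1 such probe and says nothing about transcript regions outside it. The Wfdc15b (chr2:164040205-164040264, minus strand), Wfdc15a (chr2:164025407-164025466, minus), Wfdc13 (chr2:164513128-164513187, plus) and Wfdc16 (chr2:164460402-164460461 and chr2:164460222-164460281, minus) probes belong to the Wfdc cluster. Spink8 (chr9:109729037-109729096, plus), Cst13 (chr2:148656061-148656120, plus), Cst8 (chr2:148631261-148631320, plus) and Spink2 (chr5:77634137-77634196, minus) follow. No genome was used here, so no exon is assigned to a probe.
Wfdc15b: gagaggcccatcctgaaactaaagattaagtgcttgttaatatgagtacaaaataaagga
Wfdc15a: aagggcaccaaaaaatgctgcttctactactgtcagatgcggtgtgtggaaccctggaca
Wfdc13: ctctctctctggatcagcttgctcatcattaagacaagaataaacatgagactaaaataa
Wfdc16, first probe: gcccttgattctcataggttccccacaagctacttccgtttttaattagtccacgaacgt
Wfdc16, second probe: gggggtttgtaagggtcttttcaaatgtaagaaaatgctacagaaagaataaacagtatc
Spink8: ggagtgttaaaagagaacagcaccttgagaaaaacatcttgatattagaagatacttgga
Cst13: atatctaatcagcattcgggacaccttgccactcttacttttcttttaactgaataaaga
Cst8: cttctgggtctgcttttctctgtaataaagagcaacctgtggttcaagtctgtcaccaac
Spink2: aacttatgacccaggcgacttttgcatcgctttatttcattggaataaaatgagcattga

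Wfdc6a (chr2:164405788-164405847, minus) and Wfdc6b (chr2:164442886-164442945, plus) are shown because their probes are the most alike of any member pair. In the best ungapped overlap 43 of 57 letters were equal (75.4%), marked in capitals, and the longest equal run was 18 letters. Signal from 1 of these genes on the probe of the other cannot be told apart.
Wfdc6a: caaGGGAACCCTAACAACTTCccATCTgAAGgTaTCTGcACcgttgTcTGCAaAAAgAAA
Wfdc6b: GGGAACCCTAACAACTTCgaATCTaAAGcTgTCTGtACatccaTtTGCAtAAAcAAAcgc

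Signals are log2 of the processed spot brightness relative to the 75th percentile of the same array, so 0 is that percentile. Levels of different probes are not compared, because probes differ in efficiency. Across the series, 58.8% to 64.7% of probes per array were well above background by the scanner software, and the 5 genes used to check the tissue (Ddx4, Dazl, Sycp3, Sox9 and Star) were well above background on all 8 arrays. The Ip6k1 probe read 1.55 and 1.49 in KO and 2.92 and 2.89 in WT at 26 dpp, and 1.58 and 1.67 in KO and 2.38 and 2.48 in WT at 17 dpp. The groups did not overlap, but the limma adjusted p was 0.523 at 26 dpp and 1 at 17 dpp. KO replicate 2 at 26 dpp stood apart from the other arrays of its age in part of the measures. Its 75th percentile was 422.4 intensity units, against 628.2 in KO replicate 1, 585.8 and 609.8 in WT at 26 dpp, and 415.9 to 451 at 17 dpp. Its median spike-in signal was 11.03 (log2), against 9.54 in KO replicate 1, 9.88 and 9.41 in WT at 26 dpp, and 10.51 to 11.02 at 17 dpp. Over the 31 members tested it correlated at 0.841 with its own replicate and at 0.909 and 0.952 with the KO arrays of 17 dpp. Its round and elongating spermatid markers summed to 4.56 times the 75th percentile, against 881 in KO replicate 1, 593 and 1620 in WT at 26 dpp, and 1.55 to 2.06 at 17 dpp. Its pachytene spermatocyte markers summed to 431, above the other arrays of 26 dpp (352 to 377) and further above those of 17 dpp (76.9 to 146), and its Leydig cell markers to 1.04, below every other array (12.1 to 28.2). All arrays were on 1 slide, with the 26 dpp arrays in 1 row and the 17 dpp arrays in the other, so age and slide row cannot be told apart, while KO and WT share a row at each age.

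Of the 39 genes, 20 were well above background on all 8 arrays and 5 on none. To be tested, a gene needed a probe that passed this flag on both replicates of some group, which left 31: 16 Wfdc, 7 Spink and 8 cystatin genes. The 8 not tested were Cst10, Wfdc5, Spink3, Spink5, Spink6, Spink7, Spink12 and Spink14. Among these, Spink3 (now Spink1) is the pancreatic trypsin inhibitor and Spink5 the inhibitor of skin kallikreins. A single array flagged Spink7 (−2.62, WT replicate 1 at 26 dpp), Spink3 (−4.64, the same array) and Spink12 (−4.57, WT replicate 2 at 17 dpp), and none flagged the other 5. Of the 13 Spink genes, 10 lay on chromosome 18. The number of member genes well above background on both arrays was 22 in KO and 23 in WT at 26 dpp, and 23 in KO and 30 in WT at 17 dpp. Of the 31 tested, 6 were kept through a single group, 5 through WT at 17 dpp (Spink11, Spink13, Spinkl, Wfdc15b and Wfdc16) and 1 through WT at 26 dpp (Cst7). Such a gene had to differ between groups, so the counts below are descriptions.

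**Figure D1:**
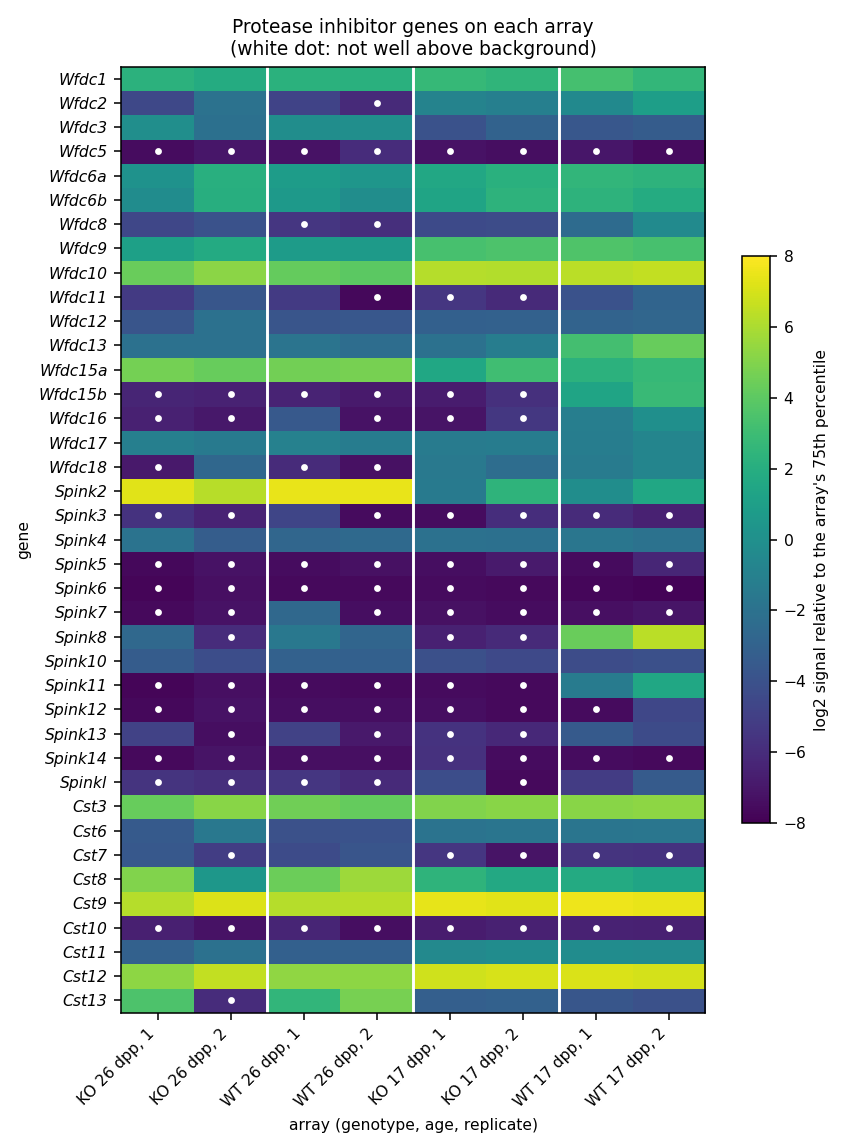
Log2 signal of the 39 member genes (rows) on the 8 arrays (columns), relative to each array's 75th percentile, with 1 probe per gene and a white dot where the probe was not well above background. Wfdc15b, Spink8 and Spink11 are bright on the 2 WT arrays of 17 dpp, and Cst13 and Cst8 are lower on KO replicate 2 than on replicate 1 at 26 dpp.

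The first comparison asked how loss of Ip6k1 alters these genes at 17 dpp. Wfdc13 and Wfdc15b, 2 genes of the chromosome 2 cluster, fell in KO testes by 42.7-fold and at least 170-fold, and no member rose. Thus 2 of 31 members passed at an adjusted p under 0.05 in limma, where 0.0941% of the 26578 genes tested passed (0.0903% lower and 0.00376% higher). Both were among the 16 Wfdc genes, while 0 of 7 Spink and 0 of 8 cystatin genes passed. At an unadjusted p under 0.05 the count was 7 members, all lower, against 1.44% of all genes, made up of 5 Wfdc, 2 Spink and 0 cystatin genes. Among these, Wfdc15b, Wfdc16 and Spink11 were kept for testing only through WT at 17 dpp, the group where they were high. Their part in both counts is a description, not a test. The median log2 difference was −0.25 over the members and 0.03 over all genes. In bulk tissue, fewer cells of a type and less RNA per cell cannot be told apart. The summed signal of epididymis and of adipocyte markers was also higher on the WT arrays, as given below, and its part was not tested.

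Wfdc13 read −2.06 and −1.22 in KO and 3.24 and 4.31 in WT at 17 dpp. The groups lay far apart, and the probe was well above background on all 4 of these arrays, so the difference was measured on both sides: −5.42 (SE 0.459), a 42.7-fold lower level (limma adjusted p = 0.036). At 26 dpp it read −2.04 and −2.05 in KO and −1.82 and −2.26 in WT, near the KO level of 17 dpp. Wfdc15b read −6.80 and −5.76 in KO, not well above background, and 1.34 and 2.83 in WT. It was at least 170-fold lower (difference −8.36, SE 0.579, limma adjusted p = 0.0324). Over the alternative settings the adjusted p lay between 0.012 and 0.409 for Wfdc13 and between 0.00846 and 0.317 for Wfdc15b. Both genes were high only on the 2 WT arrays of 17 dpp among the 8 arrays.

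Among the members, the largest difference belonged to Spink8, a Kazal-type gene on chromosome 9, and did not pass. It read −6.51 and −6.10 in KO, not well above background, and 4.35 and 6.37 in WT. It was at least 1650-fold lower (difference −11.66, SE 1.19, limma adjusted p = 0.0584), with an adjusted p between 0.00846 and 0.611 over the alternative settings. Spink11 read −7.53 and −7.62 in KO, not well above background, and −1.35 and 1.53 in WT, at least 42.9-fold lower (−7.67, SE 0.86, adjusted p = 0.091). For both genes the WT replicates lay apart from each other, while the KO replicates, not well above background, give no measured spread.

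Wfdc16 has 2 probes that disagree on the call. The first read −7.18 and −5.43 in KO, not well above background, and −1.13 and −0.01 in WT, at least 27.2-fold lower (−5.74, SE 1.24, limma adjusted p = 0.985). The second read −7.46 and −7.58 in KO, not well above background, and 0.44 and 1.28 in WT, and passed when all 37810 kept probes were tested on their own (−8.38, SE 0.378, adjusted p = 0.0106). The first had an adjusted p between 0.0543 and 1 over the alternatives. Both probes were well above background on both WT arrays and neither KO array. In the main fit the first represents the gene because of its higher mean signal.

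Together, 6 members were well above background on both WT arrays and neither KO array at 17 dpp: Wfdc15b, Wfdc16, Spink8, Spink11, Wfdc11 and Spink13. The same pattern was found in 240 of all genes tested (0.903%). Wfdc15b, Wfdc16, Spink11 and Spink13 were kept only through WT at 17 dpp, so for them the pattern follows in part from the filter. Wfdc11 read −5.45 and −6.09 in KO and −3.96 and −2.85 in WT, and Spink13, which in the rat is an epididymal inhibitor that protects the acrosome, read −5.66 and −6.14 in KO and −3.44 and −4.36 in WT. Neither passed (limma adjusted p = 1 for each). Wfdc8, which joins WAP and Kunitz domains, read −4.43 and −4.29 in KO and −2.42 and −0.37 in WT (−2.96, SE 0.656, adjusted p = 1). Its 2 other probes differed by −3.23 (SE 0.929), with KO replicate 1 not well above background, and by −0.85 (SE 0.396).

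**Figure D2:**
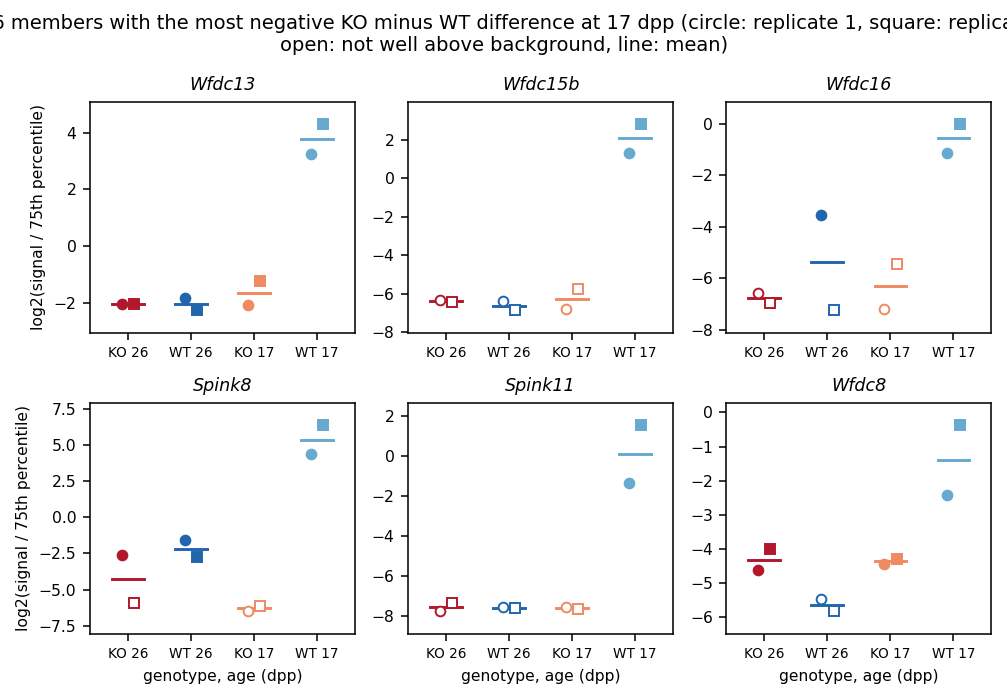
Log2 signal of 6 members on each array, by group (x axis: genotype and age), with circles for replicate 1, squares for replicate 2, open symbols where the probe was not well above background, and a line at the mean. At 17 dpp both WT arrays lie above both KO arrays in all 6 panels, and for Wfdc13 they lie at 3.24 and 4.31 against −2.06 and −1.22.

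The WT arrays of 17 dpp also differed from the KO arrays in markers of other tissues. Of 18 epididymis markers on the array, 3 and 4 were well above background in KO and 9 and 11 in WT at 17 dpp, and their summed signal was 1.79 and 2.76 times the 75th percentile in KO and 7.05 and 22.1 in WT. Of the 10 tested, 3 fell in KO (Crisp1, Adam7 and Rnase9), where 0.0903% of all genes did. In the list 5 had an unadjusted p under 0.05, against 1.44% of all genes. Crisp1, Adam7, Rnase9, Lcn5 and Spag11a were kept for testing only through WT at 17 dpp, the group where they were high. Their part in these counts is a description, not a test. Other tested markers differed little: Rnase10 by 0.38, Clpsl2 by 0.18, Ros1 by 0.09, Lcn10 by −0.19 and Lcn12 by −0.31. Of these, Rnase10, Clpsl2 and Lcn12 were well above background on all 8 arrays. Lcn5 was not well above background on either KO array and read −0.34 and 2.86 in WT, Spag11a was not well above background on either KO array and read −0.09 and 1.90 in WT, and neither passed (limma adjusted p = 0.0779 and 0.068). The list genes Crisp4, Lcn8, Bsph1, Bsph2 and Adam28 were not well above background on any array. Adipocyte markers summed to 3.85 and 2.88 in KO and 7.14 and 287 in WT, where WT replicate 2 was high, and 0 of 10 passed (4 at an unadjusted p under 0.05). The part of either tissue in the member differences was not tested.

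Related inhibitors outside the 3 names were read the same way. Among 11 other WAP and Kunitz inhibitors tested, Spint4, a Kunitz-type gene, fell in KO at 17 dpp (−5.65, limma adjusted p = 0.036). It read −7.57 and −7.13 in KO, not well above background, and −2.45 and −0.94 in WT. Among 11 serpins, Serpina16 fell (−6.53, adjusted p = 0.036), reading −6.48 and −5.93 in KO, not well above background, and 0.39 and 0.25 in WT. Spint4 and Serpina16 were both kept for testing only through WT at 17 dpp, so their calls are descriptions, not tests. Of all genes, 0.0903% were called lower. Among 10 other cystatins, 8 other Kazal-domain proteins, 11 genes for cathepsins or legumain and 13 serine proteases 0 passed, with 1 serine protease at an unadjusted p under 0.05.

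At 17 dpp 18 of 31 members had groups that did not overlap, against 28.6% of all genes. Of these, 17 were lower in KO, against 11.7%, and 1 was higher, against 16.9%. Among the 17, Wfdc15b, Wfdc16, Spink11 and Spink13 were kept for testing only through WT at 17 dpp. For them the order follows in part from the filter, so the count is a description. Many of the separated members differed by little: Cst9 (testatin) read 7.42 and 7.26 in KO and 7.58 and 7.47 in WT, and Wfdc10 read 6.21 and 6.16 in KO and 6.33 and 6.54 in WT. The member with both KO arrays above both WT arrays was Cst13, at −3.18 and −3.01 in KO and −3.73 and −4.06 in WT. Spink2 overlapped, at −1.42 and 2.42 in KO and −0.13 and 1.54 in WT.

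The calls at 17 dpp rest on few arrays. Leaving out WT replicate 2 or either KO array at 17 dpp, or either WT array at 26 dpp, left 0 members called, leaving out WT replicate 1 at 17 dpp left Spink11 and Wfdc15b, and leaving out either KO array at 26 dpp left Spink8 and Wfdc15b. The count was also 0 with normexp background correction, with the 4 arrays of 17 dpp alone and with the replicate block.

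The second comparison asked the same at 26 dpp. No member passed: 0 of 31, where limma called 2 genes (0.00753%). At an unadjusted p under 0.05 there was 1 member, Cst6, against 2.42% of all genes. Non-overlapping groups were found in 8 members, 6 higher and 2 lower in KO, against 32.5% of all genes (17.8% higher and 14.8% lower). The median difference was 0.05 over the members and 0.12 over all genes.

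In the 5 members with the largest differences at 26 dpp, the KO replicates lay apart. Cst13 (cystatin T), a testis cystatin, read 3.51 and −6.00 in KO, the second not well above background, and 2.52 and 4.71 in WT (−4.86, SE 2.81, limma adjusted p = 0.523). Cst8 (CRES, cystatin-related epididymal spermatogenic), made in spermatids and epididymis, read 4.97 and 0.49 in KO and 4.38 and 5.64 in WT (−2.28, SE 1.37, adjusted p = 0.523). KO replicate 1 was within the WT range for both genes and replicate 2 was below it. Spink8 read −2.61 and −5.94 in KO, the second not well above background, and −1.59 and −2.78 in WT (−2.09, SE 1.19). Wfdc2 (HE4, first described in human epididymis) read −4.54 and −1.98 in KO and −4.79 and −6.10 in WT (2.18, SE 0.942), and Wfdc11 read −5.29 and −3.75 in KO and −5.29 and −7.64 in WT (1.94, SE 0.911). WT replicate 2 was not well above background for Wfdc2 and Wfdc11. The adjusted p was 0.523 for Spink8, Wfdc2 and Wfdc11.

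Without KO replicate 2 these differences were −0.10 for Cst13, −0.04 for Cst8, −0.43 for Spink8, 0.90 for Wfdc2 and 1.18 for Wfdc11, and 0 members passed. Without KO replicate 1, 18 members passed, 12 higher and 6 lower, and so did 46.7% of all genes. Of the 31 members, 21 (67.7%) had a value on KO replicate 2 that lay nearer the KO mean of 17 dpp than KO replicate 1 of 26 dpp, as did 59.8% of all genes. The part of the low spermatid markers of that array in these values was not tested.

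**Figure D3:**
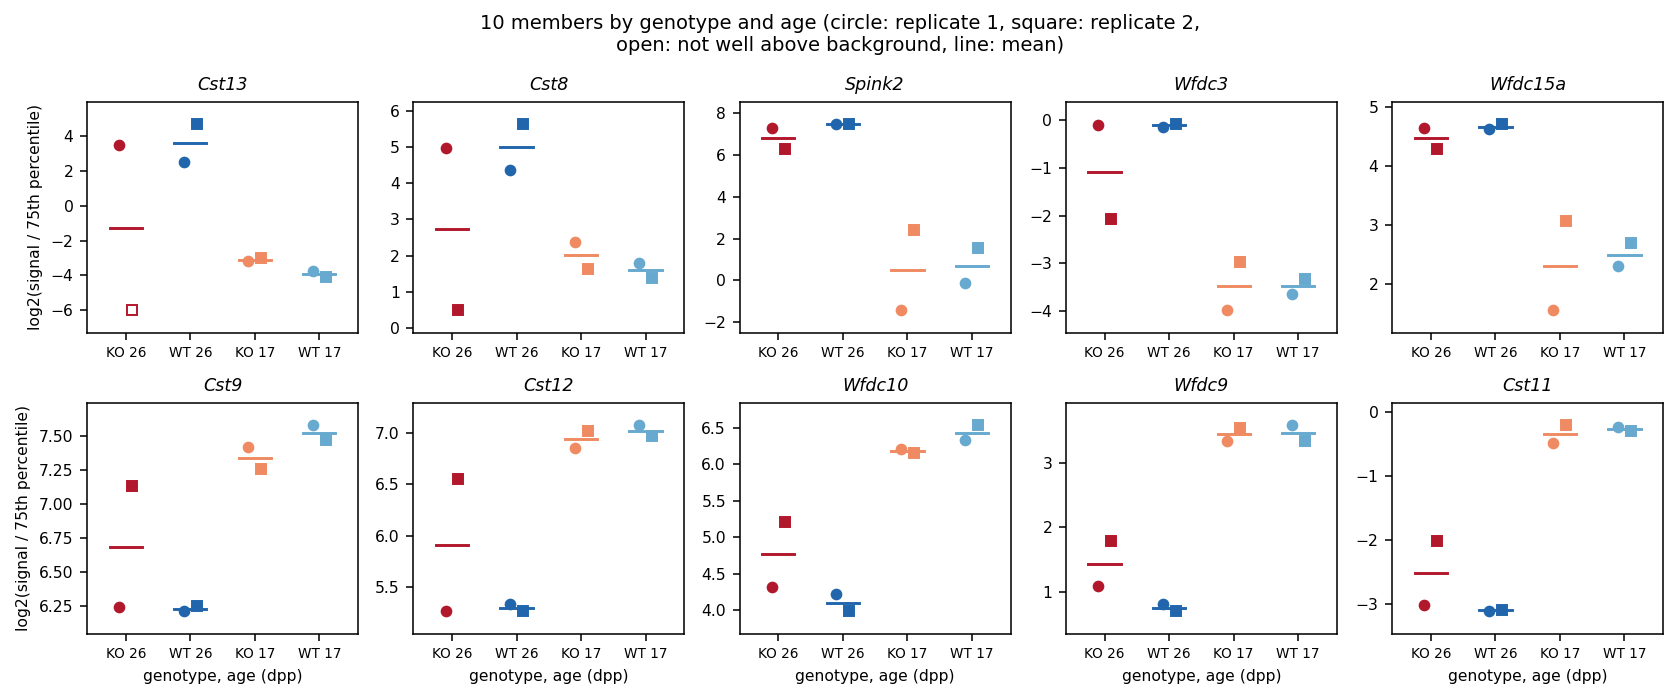
Log2 signal of 10 members on each array, by group (x axis: genotype and age in dpp), with circles for replicate 1, squares for replicate 2, open symbols where the probe was not well above background, and a line at the mean. KO replicate 2 at 26 dpp lies away from KO replicate 1 for Cst13 (−6.00 against 3.51) and Cst8 (0.49 against 4.97).

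Whether the effect of the knockout differed between ages was tested as an interaction. It was called for 0 of 31 members and 0 of all genes in limma (0%), with 8 members at an unadjusted p under 0.05, against 1.9% of all genes. In all 8 the signed value of KO minus WT was higher at 26 than at 17 dpp, against 1.01% of all genes. Higher here refers to the sign, not to the size of the change. Wfdc15b, for example, moved from −8.36 at the younger age to 0.24 at the older. Among the 8, only Wfdc2 had the larger size at 26 dpp (2.18, after −1.23 at 17 dpp). Wfdc15b, Wfdc16 and Spink11, also among the 8, were kept for testing only through WT at 17 dpp. For them the sign follows in part from the filter, so the count is a description, not a test. The KO effect at 26 dpp minus that at 17 dpp was 8.60 for Wfdc15b (SE 0.818, adjusted p = 0.15), 5.41 for Wfdc13 (SE 0.649, adjusted p = 0.2), 9.57 for Spink8 (SE 1.68, adjusted p = 0.607), 7.67 for Spink11 (SE 1.22, adjusted p = 0.402) and −5.66 for Cst13 (SE 3.97, adjusted p = 0.78). With all arrays, the members called at 17 dpp are therefore not shown to respond differently at 26 dpp. Without KO replicate 2 at 26 dpp 0 members passed. Without KO replicate 1 at 26 dpp 19 passed, among them Wfdc13, Wfdc15b, Spink8 and Spink11, as did 33.6% of all genes, and without WT replicate 1 at 17 dpp Spink11 passed.

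The third comparison followed the members from 17 to 26 dpp in WT testes, ages between which the first wave of spermatogenesis reaches the spermatid stages. Of 31 members 19 passed in limma, 4 higher and 15 lower at 26 dpp, where 45.7% of all genes passed (18.5% higher and 27.2% lower). Among the 15, Wfdc15b, Wfdc16 and Spink11 were kept for testing only through WT at 17 dpp, so their part is a description. By family, 2 Wfdc genes rose and 9 fell of 16, 2 Spink genes rose and 2 fell of 7, and 4 cystatins fell and none rose of 8. The median difference was −1.81 over the members and −0.51 over all genes, and the median over all genes lay between −0.59 and −0.28 over the scalings and filters tried, under which no called member turned round. Groups did not overlap for 30 members, against 88.4% of all genes.

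Spink2, the inhibitor of acrosin that mice need for acrosome formation, rose most among the members that passed. It read 7.44 and 7.46 in WT at 26 dpp and −0.13 and 1.54 in WT at 17 dpp, a difference of 6.75 (SE 1.25, 107-fold, limma adjusted p = 0.0134). Wfdc3 rose by 3.37 (SE 0.674, adjusted p = 0.016), reading −0.14 and −0.08 at 26 dpp and −3.63 and −3.32 at 17 dpp. Wfdc15a rose by 2.17 (SE 0.505, adjusted p = 0.0225), reading 4.62 and 4.71 against 2.30 and 2.69. Spink10 rose by 1.13 (SE 0.359, adjusted p = 0.0446). Cst13 and Cst8 differed by 7.51 (SE 2.81) and 3.42 (SE 1.37) and did not pass (adjusted p = 0.0684 and 0.0816), with both WT arrays of 26 dpp above both of 17 dpp. Both passed when either KO array of 26 dpp was left out. All 13 spermatid markers tested rose in the same comparison, and their part was not tested.

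The 15 members that fell included Wfdc15b, Spink11, Spink8, Wfdc13 and Wfdc2. Wfdc15b read −6.39 and −6.87 in WT at 26 dpp, not well above background, and was at least 170-fold lower than at 17 dpp (−8.71, SE 0.579, limma adjusted p = 0.00303). Spink11 read −7.56 and −7.57, not well above background, and was at least 42.7-fold lower (−7.65, SE 0.86, adjusted p = 0.006). Spink8 read −1.59 and −2.78 at 26 dpp, well above background, and was 186-fold lower (−7.54, SE 1.19, adjusted p = 0.00995). Wfdc13 was 56.3-fold lower (−5.82, SE 0.459, adjusted p = 0.004). Wfdc2 read −4.79 and −6.10 at 26 dpp and −0.43 and 0.94 at 17 dpp (fitted difference −5.70, SE 0.942, adjusted p = 0.0107), with WT replicate 2 of 26 dpp not well above background. Its other probe also passed (adjusted p = 0.006), with both WT arrays of 26 dpp not well above background. This comparison and that of KO with WT at 17 dpp share the WT arrays of 17 dpp. Of 10 epididymis markers tested, 5 fell and 2 rose with age in WT (median −2.15), against 27.2% and 18.5% of all genes. With age in KO 0 fell and 1 rose (median −0.02). The 5 (Crisp1, Adam7, Rnase9, Lcn5 and Spag11a) were kept for testing only through WT at 17 dpp. The part of this tissue in the member differences with age was not tested.

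Wfdc18 (Expi, an extracellular proteinase inhibitor) read −6.01 and −7.28 in WT at 26 dpp, not well above background, and −1.35 and −0.72 at 17 dpp, at least 19.6-fold lower (−5.61, SE 1.32, limma adjusted p = 0.023). It was also well above background in KO at 17 dpp, at −1.56 and −2.27, where it differed from WT by −0.88 (SE 1.32, adjusted p = 1). The Wfdc8 probe that stands for the gene was not well above background on either WT array of 26 dpp. It was at least 15.2-fold lower (fitted difference −4.26, SE 0.656, adjusted p = 0.00943). The size differed between its probes. Another probe, also not well above background on these arrays, differed by −3.67 (SE 0.929). A further probe was well above background on all 8 arrays. It read −4.79 and −4.72 in WT at 26 dpp and differed by only −1.22 (SE 0.396). Wfdc16 (−4.82, SE 1.24, adjusted p = 0.0281) and Wfdc11 (−3.06, SE 0.911, adjusted p = 0.0384) fell as well, but WT replicate 2 of 26 dpp was not well above background for either.

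Other members fell by smaller amounts and were well above background on all 8 arrays. Cst11 read −3.12 and −3.09 in WT at 26 dpp and −0.24 and −0.30 at 17 dpp (−2.84, SE 0.366, limma adjusted p = 0.00735). Wfdc9 read 0.81 and 0.70 against 3.58 and 3.34 (−2.71, SE 0.308, adjusted p = 0.00612), and Wfdc10 read 4.22 and 3.98 against 6.33 and 6.54 (−2.34, SE 0.344, adjusted p = 0.00877). Cst6 (cystatin M/E) fell by 2.23 (SE 0.588), Cst12 by 1.73 (SE 0.431) and Cst9 by 1.29 (SE 0.337), with adjusted p of 0.0297, 0.0261 and 0.0289. The Sertoli cell markers moved the same way, with 8 of 12 lower and none higher, and their part was not tested. Cst3 (cystatin C, made in most tissues) read 4.51 and 4.19 at 26 dpp and 5.15 and 5.26 at 17 dpp and did not pass (−0.86, SE 0.339, adjusted p = 0.078).

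Enzymes of the kind that many cystatins block were read beside them, without a test of whether these members block them. Of 11 genes for cysteine cathepsins or legumain, 6 fell with age in WT and none rose, among them Ctsl (−1.55, limma adjusted p = 0.0251) and Lgmn (−1.70, adjusted p = 0.0378). Of 13 serine proteases tested, 3 rose and 4 fell. Acr, which encodes acrosin, rose by 5.71 (adjusted p = 0.00735) and Prss21, a testis serine protease, also rose (adjusted p = 0.00303), with both WT arrays of 17 dpp not well above background. Of 11 serpins 7 fell, among them Serpina16, which was kept for testing only through WT at 17 dpp. Of 8 other Kazal-domain proteins 6 fell. Over all genes 18.5% rose and 27.2% fell.

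The count in WT moved with the arrays used. Without WT replicate 2 at 26 dpp 0 members passed, without WT replicate 1 at 26 dpp 5, without WT replicate 1 or 2 at 17 dpp 4 and 3, and without either KO array at 26 dpp 26. The share of all genes that passed in these fits was 0%, 2.78%, 0.824% and 0.877%, and 70.3%, in the same order. Each fit with 1 array left assumes that it varies like the other groups.

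In KO testes the same ages gave 5 members, Spink2 and Wfdc15a higher and Wfdc9, Wfdc10 and Cst11 lower at 26 dpp, against 15.8% of all genes (7.7% higher and 8.09% lower). Spink2 read 7.27 and 6.27 in KO at 26 dpp and −1.42 and 2.42 in KO at 17 dpp (6.27, SE 1.25, limma adjusted p = 0.0288). Wfdc15a read 4.64 and 4.29 against 1.56 and 3.07 (2.15, SE 0.505, adjusted p = 0.0412). Wfdc9 fell by 1.99 (SE 0.308, adjusted p = 0.0194), Cst11 by 2.17 (SE 0.366, adjusted p = 0.0225) and Wfdc10 by 1.42 (SE 0.344, adjusted p = 0.044). All 5 also passed in WT in the same direction. Wfdc3 (2.39, SE 0.674, adjusted p = 0.0622), Wfdc2 (−2.28, SE 0.942, adjusted p = 0.146) and Wfdc18 (−2.88, SE 1.32, adjusted p = 0.177) did not pass. The KO groups of the ages did not overlap for 14 members, against 60.1% of all genes.

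Without KO replicate 2 at 26 dpp 20 members passed in KO, 8 higher and 12 lower, and so did 61.3% of all genes. Cst13 then rose by 6.61 (SE 0.864), Cst8 by 2.96 (SE 0.61) and Wfdc3 by 3.37 (SE 0.434), and Wfdc2 fell by 3.57 (SE 0.754). Wfdc18 passed too, with the KO array left at 26 dpp not well above background. Wfdc13, Wfdc15b, Wfdc16 and Spink11, all dim or low in KO at both ages, stayed near 0, at −0.40, −0.05, −0.26 and −0.18. Spink8 rose by 3.69 (SE 0.926), whereas it fell in WT, although its KO arrays of 17 dpp were not well above background and give no measured level. The single KO array left at 26 dpp is assumed to vary like the other groups.

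**Figure D4:**
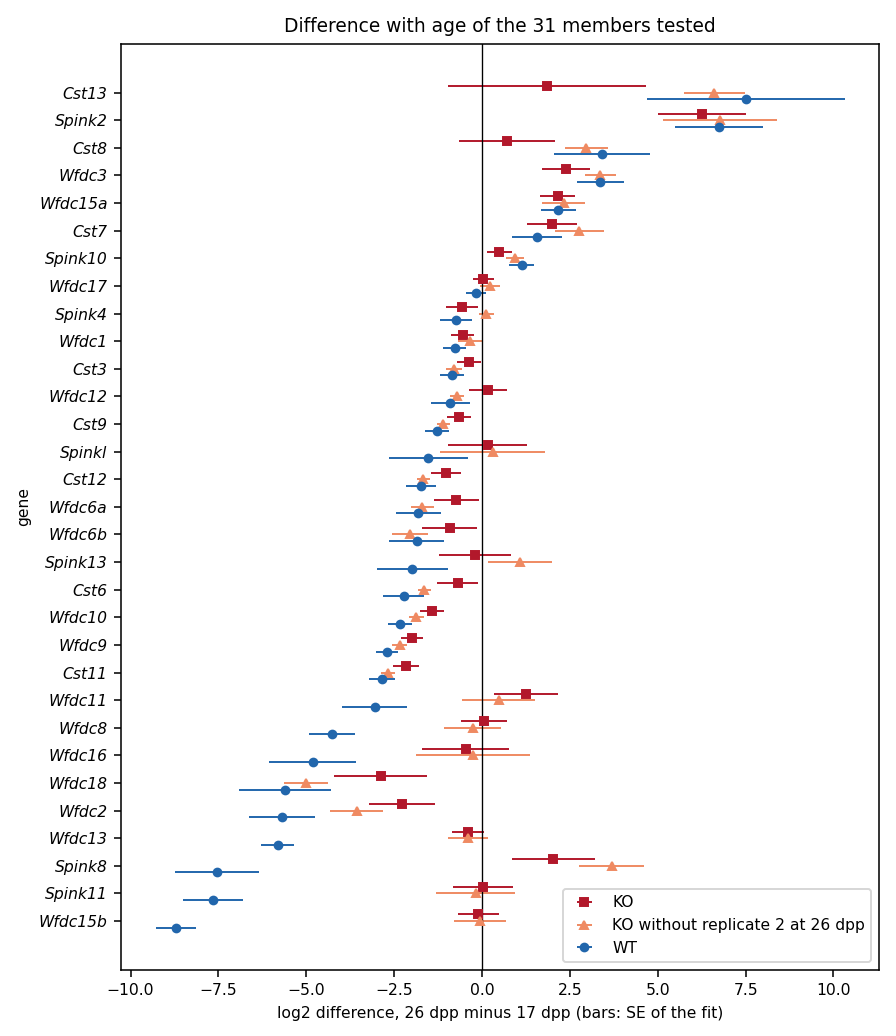
Log2 difference of 26 minus 17 dpp for the 31 members tested (rows), in KO (squares), in KO without replicate 2 at 26 dpp (triangles) and in WT (circles), with bars for the SE of the fit. Wfdc15b, Spink11 and Wfdc13 lie far below 0 in WT (−8.71, −7.65 and −5.82) and near 0 in KO, while Spink2 lies at 6.27 in KO and 6.75 in WT.

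The members not yet given passed in no comparison. Wfdc6a read 0.16 and 2.10 in KO and 0.85 and 0.38 in WT at 26 dpp, and 1.59 and 2.13 in KO and 2.51 and 2.33 in WT at 17 dpp. Wfdc6b, whose probe is alike, read −0.20 and 2.06 in KO and 0.61 and −0.13 in WT at 26 dpp, and 1.37 and 2.32 in KO and 2.34 and 1.86 in WT at 17 dpp. On both probes KO replicate 2 at 26 dpp lay above the other 3 arrays of its age.

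Wfdc1 (ps20, a WAP protein of stromal cells) and Wfdc17 (AMWAP, described in activated macrophages) were well above background on all 8 arrays. Wfdc1 lay between 1.82 and 3.31 over the 8 arrays, and Wfdc17 between −1.49 and −0.72. Wfdc12 read −3.76 and −2.01 in KO and −3.80 and −3.63 in WT at 26 dpp, and −3.10 and −3.01 in KO and −2.92 and −2.70 in WT at 17 dpp. Spink4, a Kazal-type gene best known from the gut, lay between −3.31 and −1.74, lowest on KO replicate 2 at 26 dpp.

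Cst7 (cystatin F, an inhibitor in immune cells) was well above background at 26 dpp only, at −3.58 on KO replicate 1 and −4.35 and −3.79 in WT. In WT it was at least 2.74-fold higher at 26 than at 17 dpp (1.56, SE 0.704, limma adjusted p = 0.108). Spinkl was well above background on both WT arrays (−5.13 and −3.38) and KO replicate 1 (−4.21) of 17 dpp and on none of 26 dpp.

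Neighbours in the Wfdc cluster did not share 1 pattern. Of 13 cluster genes tested, 2 fell in KO at 17 dpp, against 0.0903% of all genes, and with age in WT 8 fell and 2 rose, against 27.2% and 18.5%. Wfdc15b, in both counts of falls, and Wfdc16, in that with age, were kept for testing only through WT at 17 dpp. These counts are therefore descriptions. Wfdc15a and Wfdc15b lie side by side in the order of probes, yet Wfdc15a differed by −0.18 (SE 0.505) between KO and WT at 17 dpp, where Wfdc15b differed by −8.36. With age in WT, Wfdc15a rose by 2.17 and Wfdc15b fell by 8.71. Wfdc13 and Wfdc3, next to each other in the order of member probes, fell by 5.82 and rose by 3.37. Genes with other names that lie between member probes were not placed in this order. The cystatin cluster was mixed too: Cst11, Cst12 and Cst9 fell with age in WT, while Cst8 and Cst13 between them in the order of probes were higher at 26 dpp without passing.

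**Figure D5:**
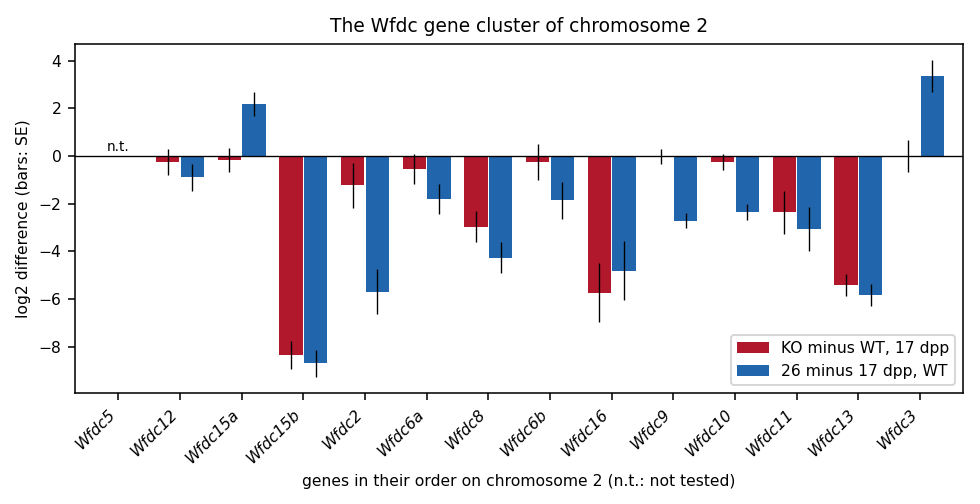
Log2 differences for the 14 genes of the chromosome 2 Wfdc cluster in their order along the chromosome, with KO minus WT at 17 dpp on the left of each pair, 26 minus 17 dpp in WT on the right, and bars for the SE. Wfdc15b (−8.36 and −8.71) stands beside Wfdc15a (−0.18 and 2.17), and Wfdc5 was not tested.

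The promoters of this pair are shown because the genes are neighbours with unlike values. Each window of 300 bases spans the annotated start. They come from RefSeq (GRCm38.p6), at chr2:164221614-164221913 for Wfdc15b and chr2:164200068-164200367 for Wfdc15a, both on the minus strand. RefSeq promoters matched 22 of the 39 genes, with 27 promoters. The capitals mark the half-site of the androgen receptor element, searched as AGAACA on both strands, which stood at position −133 in Wfdc15b and was not in these letters of Wfdc15a. It was in 4 of the 27 member promoters and in 19.0% of all 32851. The TATA box, searched as TATAAA on both strands, was in 4 of 27 and in 13.6% of all, and in neither of this pair.
Wfdc15b: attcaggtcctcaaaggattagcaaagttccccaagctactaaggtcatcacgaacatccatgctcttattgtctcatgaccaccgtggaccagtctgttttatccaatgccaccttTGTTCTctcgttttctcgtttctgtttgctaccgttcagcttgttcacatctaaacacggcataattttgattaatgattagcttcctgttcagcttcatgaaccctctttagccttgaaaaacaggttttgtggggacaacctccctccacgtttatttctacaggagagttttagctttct
Wfdc15a: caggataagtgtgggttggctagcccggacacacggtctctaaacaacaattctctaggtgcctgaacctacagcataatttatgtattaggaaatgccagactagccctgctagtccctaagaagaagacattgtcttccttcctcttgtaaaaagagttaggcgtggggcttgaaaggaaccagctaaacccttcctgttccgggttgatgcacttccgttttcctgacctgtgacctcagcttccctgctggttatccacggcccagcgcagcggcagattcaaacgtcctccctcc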

How the data were processed

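RNA of 8 testis samples was hybridised to 8 single-colour Cy3 arrays after oligo-dT priming, per the labels' protocols. The authors read spot intensity with Agilent Feature Extraction (11.5.1.1 per the file headers), and the processed signal is the deposited, background-corrected intensity, not scaled between arrays. The deposited value table holds log2 values whose scale no header or label states. Its column medians were −3.62 and −3.84 in KO and −3.59 and −3.64 in WT at 26 dpp, and −3.67 and −3.63 in KO and −3.69 and −3.69 in WT at 17 dpp. Each column correlated at 0.9999 with the values used here and lay within 0.007 of them in the median, so it is uncentred and divided by a 75th percentile over probes; how the authors combined spots of 1 probe is not given in the sources used here.

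Spots with an outlier flag, 103 to 200 on an array, were dropped, 0 spots were saturated, and spots of a probe were averaged as log2. The 75th percentile over all non-control probes was subtracted per array. For genes with several kept probes, the probe of highest mean signal stood for the gene, which gave 26578 genes. One mean per group was fitted over all 8 arrays with limma 3.58.1 in R 4.3.3 (4 residual degrees of freedom, a prior worth 2.09 more), with two-sided tests and Benjamini-Hochberg adjustment over all genes. The scripts were tested on simulated data. Exact permutation of 2 against 2 arrays cannot give a p under 0.333. Where a group was dim on both arrays, "at least" sets the bright mean against the higher, per array, of the probe's own signal and the lowest signal well above background (−5.63 to −5.23 over arrays). The number of arrays limits precision. Probe coordinates are those of the files (mm9), and RefSeq promoters are on GRCm38.p6. Members and lists were chosen with earlier results of these data known. Differences with SE and adjusted p are given for members called and for the 5 largest per comparison; members described for another reason were chosen after their values were seen. Alternatives were the background correction, the scaling, the filter, single probes, a variance trend, array weights, only the arrays compared, the replicate block, the deposited values and each array left out. No probe of a member on chromosome 18 is printed.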

Additional observations from a re-analysis of the deposited data

Results flagged for a closer look

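For 4 members, each read by the probe that stands for the gene, KO and WT did not overlap at either age. They lay in opposite order at the 2 ages, higher in KO at 26 dpp and lower in KO at 17 dpp. The KO effect at 26 dpp minus that at 17 dpp was 0.92 for Wfdc10, 3.41 for Wfdc2, 1.54 for Cst6 and 4.31 for Wfdc8. The limma adjusted p of each of these differences was 0.78. Without KO replicate 2 at 26 dpp they were 0.47 for Wfdc10, 2.13 for Wfdc2, 0.58 for Cst6 and 4.0 for Wfdc8, and none passed. For Wfdc8 the probe used was not well above background on either WT array of 26 dpp. Its other probes gave smaller values with all arrays, 2.87 (SE 1.31) and 1.70 (SE 0.56). On the probe with 2.87 the groups overlapped at 26 dpp, at −6.03 and −7.32 in KO and −5.64 and −7.00 in WT, none well above background. Groups of 2 arrays are too small for a check of single outlying arrays.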

How the results depend on the processing

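The 2 members called in KO against WT at 17 dpp became 0 with normexp and quantile scaling, normexp and the 75th percentile, probes well above background on all 8 arrays, only the arrays compared, and the replicate block. The 19 called with age in WT became 29 with array weights. The 5 called with age in KO became 3 without a filter on dim probes, 2 with the replicate block, and 0 with array weights and with only the arrays compared. Leaving out 1 array at a time gave 0 to 2 members for KO against WT at 17 dpp, 0 to 18 at 26 dpp, 0 to 19 for the difference between ages, 0 to 26 with age in WT and 0 to 20 with age in KO. The highest counts at 26 dpp and for the difference came without KO replicate 1 at 26 dpp. The labels do not say whether the replicate numbers pair the samples. Same-numbered arrays of 2 groups deviated together with correlations of −0.4 to 0.11. With 2 arrays a group these values cannot decide whether the samples were paired. Over all genes, the 25 called in KO against WT at 17 dpp became 0 to 2 under those settings, 8 with a variance trend and 40 with array weights, the 12158 called with age in WT 20194 with array weights and 18981 with only the arrays compared, and the 4197 called with age in KO 53, 0 and 1256 under array weights, only the arrays compared and the replicate block. Over the members described by difference, 616 values kept their side of the threshold, 149 lost it, 25 gained it and none turned round; the cause was not tested, except that fits with fewer arrays have fewer samples and the filter on all 8 arrays removes genes dim in 1 group. The interaction has no value from only the arrays compared. Genes not well above background have no measured level, which limits Wfdc15b, Wfdc16, Wfdc8, Wfdc2, Wfdc11, Wfdc18, Spink8, Spink11, Spink13, Spinkl, Cst7 and Cst13.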
